A study of Mus musculus with 6 samples.

Results

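Transcripts of 9 amino acid transporters of the plasma membrane were followed in RAW264.7, an established macrophage-like line of the mouse, after treatment with 25-HC or vehicle. The 9 genes, Slc7a11, Slc7a5, Slc3a2, Slc7a1, Slc7a2, Slc1a4, Slc1a5, Slc38a1 and Slc38a2, were taken by symbol from the 56636 rows of the deposited gene table, a list by function drawn up with earlier results of these data known, and each symbol had a row. Bulk RNA was sequenced from 3 libraries of cells given 25-HC for 24 h and 3 libraries of cells given vehicle for 24 h. The cells of both groups carry the label WT and differ only in treatment, per the labels, which give neither the full name of 25-HC nor its dose. The series is titled as a study of miR-9-5p from cancer cells and cholesterol homeostasis, and the question here is how macrophage transcripts stand after 25-HC relative to vehicle. RAW264.7 is a single line, and no label ties a library to a culture of its own. Each p-value therefore reflects variation among these 6 libraries alone, possibly technical. Values are TPM (abundance scaled for transcript length and then to a fixed library total), which allow levels of different genes to be compared but keep no sequencing depth. The depth behind each value is therefore unknown.

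These transporters supply the cell with amino acids from its medium. SLC3A2 (CD98) is a heavy chain that carries light chains to the cell surface. Paired with it, the light chain SLC7A5 (LAT1) imports leucine and other large neutral amino acids. The light chain SLC7A11 (xCT), also paired with it, imports cystine for glutathione in exchange for glutamate. SLC7A1 and SLC7A2 take up arginine and lysine, the first constitutively in many cells and the second in activated macrophages, where it feeds nitric oxide synthesis. SLC1A5 exchanges glutamine and other neutral amino acids, SLC1A4 alanine, serine and cysteine, and SLC38A1 and SLC38A2 bring in glutamine and other small neutral amino acids with sodium. Amino acid shortage and endoplasmic reticulum stress are known to raise several of these genes through the transcription factor ATF4, and oxidants raise Slc7a11 through NRF2.

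The vehicle libraries were unlike each other. The 25-HC libraries had 11971 to 12005 genes at 1 TPM or more, against 11238, 9492 and 11994 in vehicle 1, 2 and 3. Vehicle 1 and 2, but not vehicle 3, were low in long transcripts. In the longest of 6 equal classes of transcript length, the median log2 difference of 25-HC minus vehicle was 0.78 against vehicle 1, 1.63 against vehicle 2 and -0.04 against vehicle 3. In the shortest class it was -0.18, 0.05 and -0.05. Over all 12092 genes tested (mean of at least 1 TPM), the median log2 difference was 0.52. The macrophage label matched the markers: 9 of 10 macrophage genes averaged 1 TPM or more and their sum was 2537 to 2558 TPM in 25-HC and 1735 to 2595 TPM in vehicle, with Mertk at 0 in all libraries. Of those 9, Adgre1, Itgam, Ptprc, Lyz2 and Fcgr1 were higher in every 25-HC than in every vehicle library and Cd68 was lower. Itgam (CD11b) was at 69.4, 62.4 and 71.4 TPM in 25-HC, against 12.5, 0.53 and 50.9 TPM in vehicle. T cell, B cell, neutrophil, fibroblast, epithelial and dendritic cell lists each summed to at most 2.57 TPM in any library.

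As deposited, the summed level of the transporters was higher in each 25-HC library than in any vehicle library. The 9 genes together summed to 827.5, 800.4 and 839 TPM in 25-HC 1, 2 and 3, against 448, 129 and 705 TPM in vehicle 1, 2 and 3. In bulk RNA, fewer cells of a type and less RNA per cell cannot be told apart. Every 25-HC library was above every vehicle library for 5 genes, namely Slc7a5, Slc3a2, Slc7a1, Slc1a4 and Slc38a2. Values of Slc7a11, Slc1a5 and Slc38a1 overlapped, and Slc7a2 did not reach the filter. Of all genes tested, 22.6% had such a separation upward and 8.1% downward, so 5 of the 8 tested transporters stood beside a background of 22.6%. The macrophage markers had the same kind of separation in 5 of 9, and their part in the transporter values was not tested. Mean TPM was higher in 25-HC for each of the 8, as for 73.5% of all genes tested. The median log2 difference of the 8 was 1.53, against 0.52 over all genes tested. No transporter passed limma with Benjamini-Hochberg adjustment over all genes (adjusted p of 0.389 to 0.409). That test called 1 gene higher (0.00827%) and 0 lower (0.0%), and 996 higher (8.24%) and 356 lower (2.94%) at an unadjusted p under 0.05. Among the transporters, Slc3a2, Slc7a1 and Slc1a4 had an unadjusted p under 0.05, all with higher values in 25-HC.

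**Figure D1:**
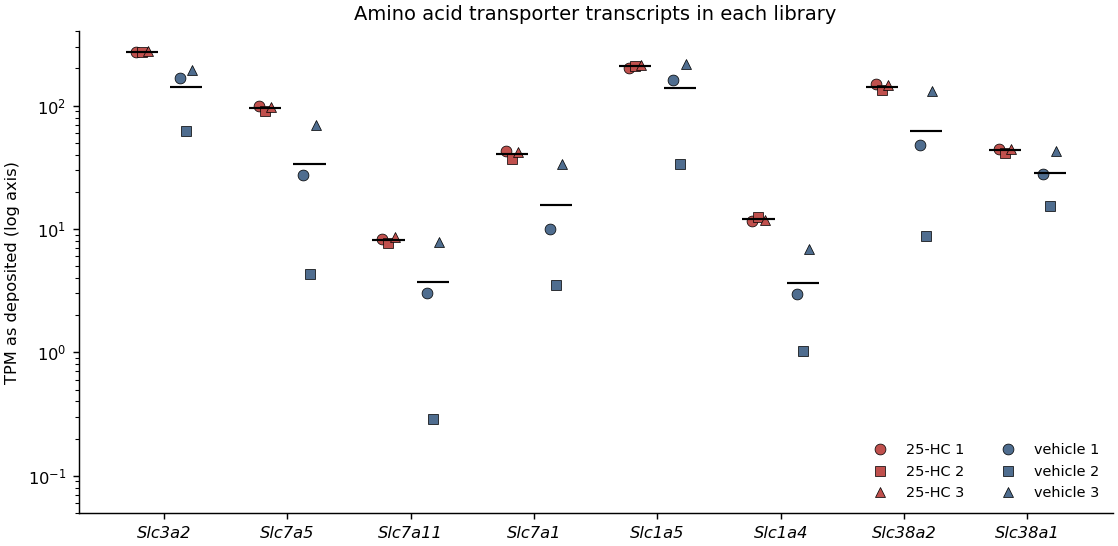
TPM as deposited (log axis) of the 8 tested transporters in each of the 3 25-HC libraries (red, left) and the 3 vehicle libraries (blue, right), with circle, square and triangle for replicates 1, 2 and 3 and a bar at the mean. The 25-HC libraries lie close together for every gene, while vehicle 2 is the lowest vehicle library throughout and vehicle 3 the highest; Slc7a11 spans 7.67 to 8.62 TPM in 25-HC and 0.29 to 7.81 TPM in vehicle.

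The order of levels was the same in the 3 25-HC libraries. Slc3a2 was the most abundant at 272 ± 3.67 TPM (SD, n = 3), followed by Slc1a5, Slc38a2 and Slc7a5. Slc38a1 and Slc7a1 came next, at 41.2 to 44.7 and 37.01 to 43.03 TPM, and their ranges overlapped, although Slc38a1 was above Slc7a1 within each of the 3 libraries. Slc1a4 and Slc7a11 were lower, at 11.6 to 12.5 and 7.67 to 8.62 TPM, and Slc7a2 was at 0.01 TPM or listed at 0. Among the vehicle libraries each neighbouring pair in the order of means overlapped, down to Slc7a11 and Slc1a4. Slc1a5 exceeded Slc3a2 in vehicle 3, at 219 and 195 TPM, and in no other library. In vehicle 1 and 2 Slc38a1 was above Slc7a5, whereas in vehicle 3 and each 25-HC library Slc7a5 was above Slc38a1.

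The heavy chain Slc3a2 was at 270.4, 269 and 276 TPM in 25-HC 1, 2 and 3, against 167, 61.8 and 195 TPM in vehicle 1, 2 and 3. The groups did not overlap, and the 25-HC mean was 1.39 times the level of vehicle 3. The log2 difference was 1.10 (SE 0.44, adjusted p = 0.389 by limma). With vehicle 2 left out it was 0.59, with vehicle 3 as the sole control 0.48, and with median-ratio rescaling 0.47. The ratio of means was 1.92-fold as deposited and 1.39-fold after median-ratio rescaling, which divides each library by 1 factor, and the libraries stayed apart in both.

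Slc7a5, the LAT1 light chain, had the largest log2 difference of the transporters as deposited. It was at 99.2, 90.5 and 98.2 TPM in 25-HC, against 27.2, 4.34 and 69.8 TPM in vehicle 1, 2 and 3. All 25-HC libraries were above vehicle 3, and vehicle 2 was far below both other vehicle libraries. The log2 difference was 2.14 (SE 0.89, adjusted p = 0.389 by limma). It was 1.12 without vehicle 2 and 0.45 against vehicle 3 alone.

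Slc7a11, the xCT light chain, was at 8.30, 7.67 and 8.62 TPM in 25-HC, against 3.02, 0.29 and 7.81 TPM in vehicle. Vehicle 3 lay inside the range of the 25-HC libraries, so the groups overlapped. The log2 difference was 1.36 (SE 0.69, adjusted p = 0.389 by limma), 0.63 without vehicle 2, and 0.06 against vehicle 3 alone. The longest annotated transcript of Slc7a11, at 9223 bases, exceeds that of 97.8% of the tested genes with a length. After subtracting the length trend of each library the log2 difference was 0.58, and the 25-HC libraries were then all above vehicle 3, by a narrow margin of 0.27 at the lowest against 0.24 relative to the mean of the gene.

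Promoter sequence bears on these genes because ATF4 binds C/EBP-ATF response elements (CARE) and NRF2 binds antioxidant response elements (ARE). The RefSeq table (GRCm38.p6, 250 bases before to 50 after a start) held 6 windows for 5 of the 9 genes, namely Slc7a11, Slc3a2, Slc1a4, Slc38a2 and a pair for Slc7a1. The CARE core TGATGNAA and the ARE core TGACNNNGC were searched on both strands. Among all 32851 windows, 3.97% held the CARE core and 0.07% held it at least 2 times, while 12.4% held the ARE core. The 4 stretches with a match are shown 5′ to 3′ along the gene, with each match in capitals, since they let the letters searched be seen beside the measured genes. A match is not evidence of binding.
Slc7a11: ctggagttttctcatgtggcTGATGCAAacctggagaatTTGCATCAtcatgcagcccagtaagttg
Slc1a4: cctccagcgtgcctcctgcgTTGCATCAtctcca
Slc38a2: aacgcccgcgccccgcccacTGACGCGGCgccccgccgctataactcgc
Slc7a1: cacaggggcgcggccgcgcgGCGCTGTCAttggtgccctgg
The Slc7a11 stretch (chr3:50443633-50443699, minus strand) held 2 CARE cores on opposite strands, ending 59 and 40 bases before the start. The Slc1a4 stretch (chr11:20332704-20332737, minus strand) held 1 CARE core, on the opposite strand and across the start. The ARE core was found in Slc38a2 (chr15:96699727-96699775, minus strand) and in the first Slc7a1 window (chr5:148399895-148399935, minus strand), where it lies on the opposite strand. The cores do not overlap each other. The windows of Slc3a2 and the second start of Slc7a1 held neither core, which says only that these letters are not in those windows.

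Slc1a4, the alanine, serine and cysteine transporter, was at 11.6, 12.5 and 11.9 TPM in 25-HC, against 2.96, 1.02 and 6.94 TPM in vehicle. The groups did not overlap, and the 25-HC mean was 1.73 times vehicle 3, the largest such fold among the transporters. Its log2 difference was 1.70 (SE 0.52, adjusted p = 0.389 by limma). It was 1.25 after median-ratio rescaling, 1.03 after the length correction and 0.71 against vehicle 3 alone. Its relative Slc1a5, the glutamine exchanger, was at 201, 209 and 211 TPM in 25-HC, against 162, 33.6 and 219 TPM in vehicle. Here vehicle 3 was above all 3 25-HC libraries. The log2 difference of 0.95 (SE 0.68, adjusted p = 0.409 by limma) was 0.14 without vehicle 2, 1.47 without vehicle 3 and -0.08 against vehicle 3 alone.

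The arginine transporters differed in level. Slc7a1 was at 43.03, 37.01 and 42.1 TPM in 25-HC, against 9.93, 3.5 and 33.7 TPM in vehicle. Every 25-HC library was above vehicle 3, by 1.21-fold for the mean, and the vehicle values were spread over a far wider range. Its log2 difference was 1.80 (SE 0.72, adjusted p = 0.389 by limma). It was 1.10 without vehicle 2 and 0.26 against vehicle 3 alone. Slc7a2, the transporter known from activated macrophages, was listed at 0 in 5 libraries and at 0.01 TPM in 25-HC 3, so no fold is given. A long noncoding gene on the opposite strand overlaps exons of Slc7a2 in GENCODE M21, and whether reads were counted by strand is not stated. With Slc7a2 at 0 to 0.01 TPM, hardly any reads of that other gene can have been added to it.

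Of the sodium-coupled glutamine transporters, Slc38a2 had the larger difference. Slc38a2, the form known to be raised by amino acid shortage, was at 149, 133 and 146 TPM in 25-HC, against 47.9, 8.73 and 131 TPM in vehicle. The lowest 25-HC library was just above vehicle 3. The log2 difference was 1.85 (SE 0.89, adjusted p = 0.389 by limma), 0.84 without vehicle 2 and 0.12 against vehicle 3 alone. Slc38a1 was at 44.7, 41.2 and 44.7 TPM in 25-HC, against 28.0, 15.3 and 42.5 TPM in vehicle. Vehicle 3 lay within the 25-HC range. Its log2 difference of 0.70 (SE 0.39, adjusted p = 0.389 by limma) was the smallest of the 8. With vehicle 2 left out it was 0.33, with median-ratio rescaling 0.09 and -0.08 after the length correction.

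**Figure D2:**
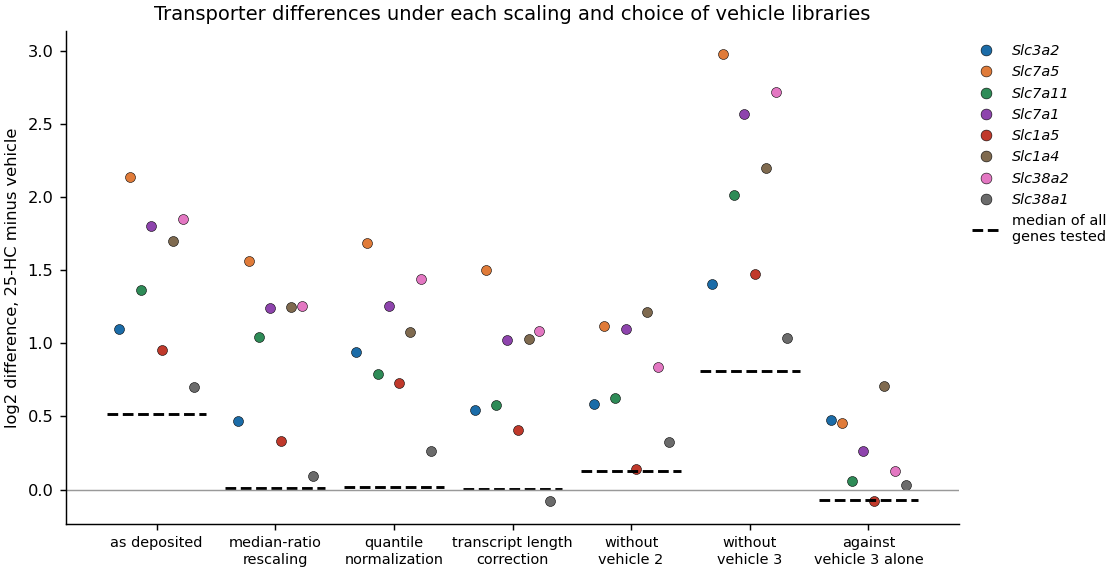
Log2 differences, 25-HC minus vehicle, of the 8 tested transporters (coloured points) under 4 scalings and 3 choices of vehicle libraries, with the median of all genes tested as a dashed line. As deposited all 8 lie above the median of 0.52; against vehicle 3 alone Slc1a4, Slc3a2 and Slc7a5 are farthest from 0, at 0.71, 0.48 and 0.45, and Slc1a5 is at -0.08.

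The separation of 5 genes was seen under the other scalings as well. After median-ratio rescaling 6 of the 8 separated upward, with 18.4% of all genes tested, and the values of Slc38a1 and Slc1a5 overlapped. Slc7a11 was then at 6.54, 6.16 and 6.82 rescaled TPM in 25-HC, against 3.12, 0.686 and 5.93 in vehicle. Quantile normalization gave 7 of 8, beside 18.6% of all genes, and the length correction gave 6 of 8, beside 17.1%. None of the 8 separated downward in these settings, where 18.1%, 17.3% and 18.7% of all genes did. The median log2 difference of the 8 was 1.14, 1.01 and 0.80 in these settings, where the median over all genes was 0.01, 0.02 and 0.003. Without vehicle 2 it was 0.73, with 0.13 over all genes, and 5 of 8 separated upward, beside 23.6%, and none downward, beside 16.9%. Without vehicle 1, 5 of 8 separated upward, beside 24.4% of all genes, and none downward, beside 9.23%. Vehicle 3 was the highest vehicle library for each of the 8 as deposited. The upward count was therefore bound to stay at 5 without vehicle 1, without vehicle 2 and against vehicle 3 alone. Against vehicle 3 alone, which is a value with no test, 5 of 8 were above that library in each 25-HC library, beside 28.5% of all genes, and Slc1a5 was below it, beside 45.7%. The median of the 8 was then 0.19, with -0.07 over all genes. Without vehicle 3, limma called 671 genes higher (5.55%), Slc7a1 and Slc1a4 among them (adjusted p = 0.0482 for both), and all 8 separated upward, beside 59.5% of all genes (13.2% downward).

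Vehicle 1 and 2, which had the length trend, were below vehicle 3 for each of the 8 tested transporters. The part of the trend in those values was not tested beyond the length correction. Among the 8, the log2 difference as deposited did not follow length. Slc38a1, at 7266 bases, had the smallest and Slc7a5, at 3517 bases, the largest. Slc7a11, Slc7a1, Slc38a1 and Slc38a2 are in the longest of the 6 length classes. Slc38a1 was close to that class: its log2 difference was 0.62 against vehicle 1 and 1.45 against vehicle 2, beside class medians of 0.78 and 1.63. Slc38a2 was farther out, at 1.55 and 3.88. Slc7a5, in the fourth class, was at 1.78 and 4.18, beside class medians of 0.48 and 1.54, and exceeded 98.5% and 99.4% of the genes of its class. Slc3a2, in the third class, was at 0.70 and 2.12, beside 0.29 and 1.32. Against vehicle 3, which lacked the trend, Slc1a4, Slc3a2 and Slc7a5 exceeded 97.7%, 94.3% and 93.8% of their classes, whereas Slc1a5 and Slc38a1 exceeded 52.5% and 57.6%.

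**Figure D3:**
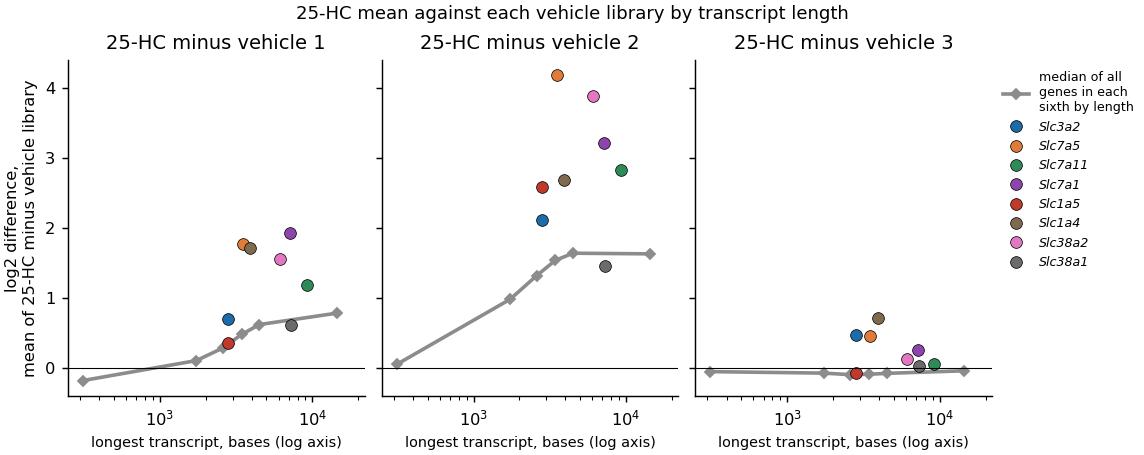
Log2 difference of the mean of the 25-HC libraries minus each vehicle library (1 panel each) against the length of the longest transcript (log axis), for the 8 tested transporters (points) and for the median of all genes in 6 length classes (grey line). The grey line climbs with length to 0.78 for vehicle 1 and 1.63 for vehicle 2 and stays near 0 for vehicle 3; Slc38a1 lies near it in each panel, while Slc7a5 and Slc38a2 lie far above it for vehicle 2.

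A plain TPM ratio between partner transporters does not move with a factor that scales a whole library, but the tested log2 ratios of TPM + 1 do where a partner is low. Slc3a2 exceeded Slc7a5 by 2.73, 2.98 and 2.81 times in 25-HC, against 6.15, 14.2 and 2.80 times in vehicle 1, 2 and 3. Vehicle 3 was thus inside the 25-HC range and vehicle 1 and 2 were outside it. On the log2(TPM + 1) scale, the Slc7a5 to Slc3a2 ratio differed by 1.04 (two-sided exact permutation p = 0.3, adjusted p = 0.375 over 5 pairs), by 0.53 without vehicle 2 and by 1.57 without vehicle 3. Slc3a2 exceeded Slc7a11 by 32.6, 35.1 and 32.04 times in 25-HC, against 55.4, 213 and 25.0 times in vehicle, with a log2 difference of 0.26 (exact permutation p = 0.4). That difference was 0.57 after median-ratio rescaling, 0.03 after the length correction, and, with 1 vehicle library left out, 0.15 without vehicle 1, 0.04 without vehicle 2 and 0.60 without vehicle 3.

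The ratios of the close relatives Slc1a4 and Slc1a5, and Slc38a1 and Slc38a2, did not overlap between the groups. Slc1a5 exceeded Slc1a4 by 17.3, 16.8 and 17.8 times in 25-HC, against 54.8, 33.0 and 31.5 times in vehicle. All 3 vehicle libraries were thus farther apart in the pair than any 25-HC library, vehicle 3 included. On the log2(TPM + 1) scale the Slc1a4 to Slc1a5 ratio differed by 0.75 (exact permutation p = 0.1, adjusted p = 0.167 over 5 pairs), and by 0.62 with overlap after the length correction (exact permutation p = 0.4). It was 0.91 after median-ratio rescaling and 0.44 without vehicle 1. With a pseudocount of 5 it differed by 0.12, with overlap (exact permutation p = 1). The level of Slc38a2 was 3.33, 3.22 and 3.27 times that of Slc38a1 in 25-HC, against 1.71, 0.572 and 3.07 times in vehicle. The Slc38a1 to Slc38a2 log2 ratio differed by -1.15 as deposited and by -1.17 after the length correction (exact permutation p = 0.1 in both), and by -0.51 without vehicle 2. With 3 libraries against 3, p = 0.1 is the smallest the exact test can give. The fifth pair, Slc7a2 to Slc7a1, holds no more than the values of Slc7a1, since Slc7a2 was at or near 0.

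**Figure D4:**
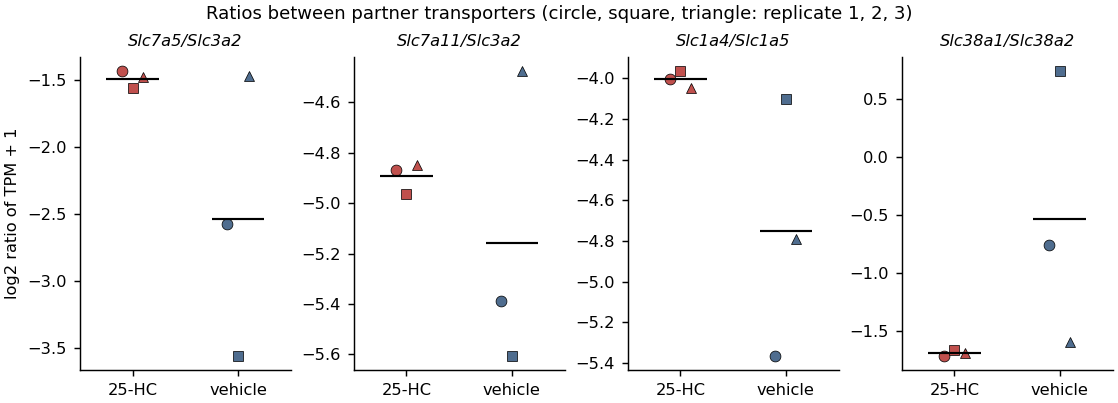
Log2 ratio of TPM + 1 between 4 pairs of partner transporters in each 25-HC (red, left) and vehicle (blue, right) library, with a bar at the mean and circle, square and triangle for replicates 1, 2 and 3. The groups do not overlap for Slc1a4/Slc1a5 and Slc38a1/Slc38a2, and vehicle 3 lies within or above the 25-HC range for Slc7a5/Slc3a2 and Slc7a11/Slc3a2.

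By profile over the 6 libraries, each centred on its own mean of log2(TPM + 1), Slc7a5 and Slc38a2 were the closest transporters to each other, with a root mean square difference of 0.15. The farthest were Slc7a5 and Slc38a1, at 0.99. The nearest other tested gene was Septin11 for Slc7a11 (0.02), Mfsd1 for Slc7a5 (0.08), Srbd1 for Slc3a2 (0.04), Xpo7 for Slc7a1 (0.07), Idh1 for Slc1a4 (0.06), Chmp5 for Slc1a5 (0.03), Pphln1 for Slc38a1 (0.03) and Tmem123 for Slc38a2 (0.05). These likenesses rest on 6 libraries, in which the low values of vehicle 1 and 2 are shared by many genes.

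Of 27 other plasma membrane transporters of amino acids, 7 passed the filter, and 2 of these 7 separated upward and none downward, beside 22.6% and 8.1% of all genes tested. None was called over all genes by limma, and 2 had higher values in 25-HC at an unadjusted p under 0.05, beside 8.24% of all genes. Their median log2 difference was 1.15 as deposited and -0.01 against vehicle 3 alone. Slc6a9, a glycine transporter, was at 19.3, 18.4 and 20.1 TPM in 25-HC, against 5.22, 0.41 and 10.9 TPM in vehicle. Slc7a7, another light chain that partners SLC3A2, was at 10.1, 10.2 and 10.8 TPM in 25-HC, against 4.75, 1.81 and 7.24 TPM in vehicle. Both also separated after median-ratio rescaling. The light chain Slc7a6, chosen after its values were seen, overlapped at 24.6 to 26.3 TPM in 25-HC and 6.21 to 36.01 TPM in vehicle.

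Of 18 transporters of the lysosome and other vesicles, 12 passed the filter and 8 separated upward, beside 22.6% of all genes, with a median log2 difference of 0.93. The 12 include Slc17a9 and Slc29a3, which carry nucleotides or nucleosides rather than amino acids and whose values overlapped. None of the 12 was called by limma, and 3 had an unadjusted p under 0.05, beside 8.24% of all genes higher at that p. In each 25-HC library 8 of 12 lay above vehicle 3, beside 28.5% of all genes, with a median of 0.24 against vehicle 3. Slc36a1, which exports amino acids from lysosomes, was at 7.28, 7.15 and 6.91 TPM in 25-HC, against 1.86, 0.42 and 4.93 TPM in vehicle. Slc38a7, a lysosomal glutamine exporter, was at 34.9, 33.6 and 36.3 TPM in 25-HC, against 13.2, 4.93 and 24.2 TPM in vehicle. In both cases the 25-HC mean was 1.44 times vehicle 3. Mitochondrial carriers of amino acids separated upward in 1 of 7 tested cases, beside 22.6% of all genes. Against vehicle 3, 6 of the 7 were lower in each 25-HC library, beside 45.7% of all genes (median -0.24, and -0.07 over all genes). The separated gene was Sfxn1, a mitochondrial serine carrier, at 24.05, 22.6 and 22.9 TPM in 25-HC, against 12.4, 3.30 and 22.0 TPM in vehicle. Slc25a44, a carrier of branched-chain amino acids, overlapped at 5.86 to 8.73 TPM in 25-HC and 0 to 8.87 TPM in vehicle.

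Enzymes that use the imported amino acids were also examined. Of the cystine and glutathione enzymes, 2 of 7 tested separated upward, beside 22.6% of all genes, and 5 of 7 were below vehicle 3 in each 25-HC library, beside 45.7%. None was called by limma, and 2 had an unadjusted p under 0.05, beside 8.24% of all genes higher at that p. Cth, the lyase that releases cysteine, was at 46.1 to 48.2 TPM in 25-HC and 0.75 to 12.2 TPM in vehicle. Chac1, which breaks down glutathione, was at 28.2 to 29.7 TPM in 25-HC and 4.19 to 10.6 TPM in vehicle. Gclm, a subunit of the enzyme that starts glutathione synthesis, chosen after its values were seen, was at 26.4, 30.4 and 26.1 TPM in 25-HC, against 45.04, 5.92 and 56.6 TPM in vehicle.

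Of the arginine enzymes, 1 of 4 tested separated upward and 1 downward, beside 22.6% and 8.1% of all genes. None was called by limma, and 1 was higher at an unadjusted p under 0.05, beside 8.24% of all genes. Arg2, the mitochondrial arginase, was at 6.54 to 8.24 TPM in 25-HC and 0.74 to 4.03 TPM in vehicle. Asl, argininosuccinate lyase, was at 34.9 to 36.5 TPM in 25-HC and 36.6 to 67.6 TPM in vehicle, and overlapped after median-ratio rescaling. Of the glutamine and asparagine enzymes, 4 of 8 tested separated upward and none downward as deposited, beside 22.6% and 8.1% of all genes. None was called by limma, and 2 were higher at an unadjusted p under 0.05, beside 8.24% of all genes. After median-ratio rescaling 3 separated upward and 1 downward, beside 18.4% and 18.1% of all genes. After the length correction 4 separated upward and 1 downward, beside 17.1% and 18.7%. Asns, asparagine synthetase, was at 340.07 to 342 TPM in 25-HC and 119.8 to 203 TPM in vehicle, with overlap after median-ratio rescaling, and Gpt2, a mitochondrial alanine transaminase, at 27.3 to 28.8 TPM in 25-HC and 4.52 to 16.8 TPM in vehicle. Of the amino acid sensing genes, 6 of 15 tested separated upward and 1 downward as deposited, beside 22.6% and 8.1% of all genes. None was called by limma, and 4 were higher at an unadjusted p under 0.05, beside 8.24% of all genes. The median log2 difference of the sensing genes was 0.74. After median-ratio rescaling 6 separated upward and 4 downward, beside 18.4% and 18.1% of all genes, with a median of 0.17. After the length correction 6 separated upward and 5 downward, beside 17.1% and 18.7% of all genes, with a median of -0.02. Sesn2, a leucine sensor of mTORC1, was at 19.3 to 20.2 TPM in 25-HC and 2.19 to 10.7 TPM in vehicle. Trib3, a pseudokinase downstream of ATF4, was at 64.2 to 69.4 TPM in 25-HC and 2.71 to 16.6 TPM in vehicle.

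**Figure D5:**
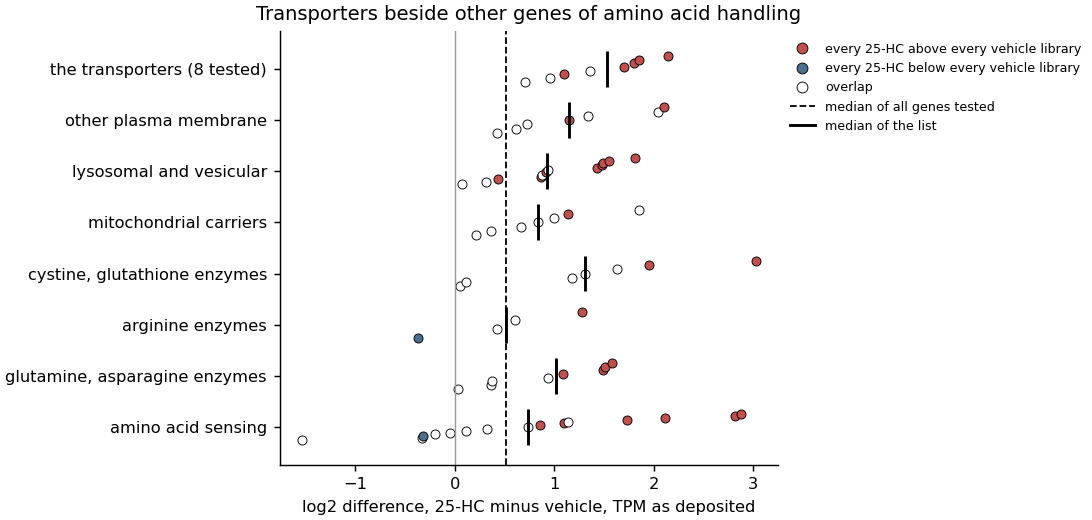
Log2 differences, 25-HC minus vehicle, of the 8 tested transporters and of the tested genes of 7 other lists of amino acid handling, 1 point a gene, as deposited. The lysosomal and vesicular list includes Slc17a9 and Slc29a3, which carry nucleotides or nucleosides. Red points mark genes with every 25-HC library above every vehicle library, blue points the reverse and open points overlap; the list medians (bars) are 1.53 for the transporters and 0.51 to 1.31 for the others, beside 0.52 for all genes tested (dashed line).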

How the data were processed

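RNA of 6 RAW264.7 libraries was sequenced after TruSeq library preparation, per the labels' protocols. HISAT2, StringTie, RSEM and the build GRCm39 are named in the submitters' processing notes, while their versions, order, annotation release and strand setting were not given in the sources used here. TPM values were deposited as 1 table, with 2 decimals and totals of 1000000 to 1000001 per library, and 11 empty columns were left out. Since TPM is scaled by length and total, a loss of long transcripts in a library shifts many genes at once, and depth and counting intervals cannot be had. Where a symbol had several rows, the highest mean kept it.

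The two-sided limma test was run on log2(TPM + 1) of all genes averaging 1 TPM or more. It used version 3.58.1 in R 4.3.3 with a variance trend, no block and Benjamini-Hochberg adjustment at 0.05. The test was also run on simulated data, whose outcome is not given here. No conclusion is drawn from that run for these libraries, where the vehicle values spread far more widely than the treated ones. Log2 differences keep the pseudocount and so are too small for low genes, and folds are ratios of mean TPM. Ratios of partners were tested by exact permutation in scipy 1.17.1. The length correction subtracted a loess trend (span 0.75, degree 2) of each library on the longest transcript in GENCODE M21, matched by identifier for 92.1% of the tested genes. Promoter windows are those of RefSeq for GRCm38.p6, a different build, used only for sequence. Named genes were the transporters, the 2 smallest p per other list and the nearest profile of each transporter. Transporters, lists and tests were chosen with earlier results of these data known. Other settings are given at the end.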

Additional observations from a re-analysis of the deposited data

How the results depend on the processing

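Of 16 other settings with a test, 15 called no transporter by limma, and the setting without vehicle 3 called 2 of 8. The transporters separated upward were 5 of 8 as deposited, beside 22.6% of all genes. With 1 library left out they were 5 to 8, and leaving out a library cannot lower the count. The 8 of 8 came without vehicle 3, beside 59.5% of all genes. Without 25-HC 2 the count was 7 of 8, beside 3273 of 12092 genes tested. Without 25-HC 1 and without 25-HC 3 it was 5 of 8, beside 2998 and 3026 of 12092. Their median log2 difference of 1.53 was 0.73 to 2.11 when 1 library was left out, and 0.19 against vehicle 3 alone. Of the 8 transporters, Slc3a2, Slc7a5, Slc7a11, Slc7a1, Slc1a4 and Slc38a2 kept a positive log2 difference in all 17 other settings. Some of these settings cannot change that difference, namely the other filters, robust moderation, no variance trend and the replicate block. Slc38a1 was at -0.081 after the length correction, and Slc1a5 at -0.077 against vehicle 3 alone. The cause was not tested. The Slc7a11 to Slc3a2 ratio differed by -0.38 with a pseudocount of 5, which damps low values such as those of Slc7a11, and by 0.26 with 1.

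Over all genes limma called 1 higher and 0 lower as deposited. It called 0 higher with a pseudocount of 5, with no filter, with a mean of at least 5 TPM and with the replicate block, and 1 lower gene with median-ratio rescaling. Quantile normalization gave 4 higher and 1 lower, and the length correction 16 higher and 3 lower. With 1 library left out it called 0 to 671 higher and 0 to 51 lower, namely 0 higher without any single 25-HC library, 1 without vehicle 1, 9 without vehicle 2 and 671 without vehicle 3. Deviations from the group means showed no pairing by replicate number (r of -0.01, 0.06 and 0.03 for the same number, -0.08 to 0.05 for unlike numbers). With 3 libraries per group, of which the vehicle libraries differed widely, this cannot exclude pairing. With the replicate block 0 transporters were called. At an unadjusted p under 0.05 by limma there were 5 of 8, and 3 without the block, beside 981 and 996 of 12092 genes tested that were higher. The median log2 difference of the 8 stayed at 1.53, since a balanced block leaves each log2 difference unchanged. In that block the exact sign-flip p of the Slc1a4 to Slc1a5 and Slc38a1 to Slc38a2 ratios was 0.25, the smallest 3 pairs allow. TPM keeps no depth, so precision at low levels such as 0.29 TPM of Slc7a11 is unknown.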

Other observations

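Some listed genes outside the naming rule, chosen after their values were seen, were lower with 25-HC or scattered within it. Cbs, which makes cystathionine, was at 0.02, 0.08 and 0.04 TPM in 25-HC, against 0.21, 0.11 and 1.29 TPM in vehicle, below the filter and without overlap. Castor1, an arginine sensor of mTORC1, was at 7.41, 6.89 and 7.21 TPM in 25-HC, against 10.03, 8.04 and 9.63 TPM in vehicle. It had no overlap as deposited or after median-ratio rescaling (log2 difference -0.32, adjusted p = 0.438 by limma). Rragd, a Rag GTPase that recruits mTORC1 to lysosomes, was at 17.6, 8.08 and 2.26 TPM in 25-HC, against 22.9, 16.04 and 31.7 TPM in vehicle, with overlap as deposited and none after median-ratio rescaling. That spread within 25-HC is unlike the transporters, whose 3 values in 25-HC differed by at most 1.16-fold among the 8 tested.

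Txnrd1, a thioredoxin reductase known as an NRF2 target, was also outside the naming rule and chosen after its values were seen. It was at 110.5, 105.04 and 108 TPM in 25-HC, against 63.1, 10.02 and 159 TPM in vehicle. Vehicle 3 was thus above every 25-HC library, while the ratio of means was 1.40-fold (log2 difference 1.17, adjusted p = 0.433 by limma). Atf4, chosen in the same way, was at 559, 572 and 567 TPM in 25-HC, against 225, 30.04 and 323 TPM in vehicle. The part of NRF2 or ATF4 in the transporter values was not tested.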
